A study of Homo sapiens with 6 samples.

Results

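Box C/D small nucleolar RNAs (snoRNAs) were examined in U-87, an established human glioma cell line, with and without lowered P68, the RNA helicase encoded by DDX5. The members were the genes whose symbol is SNORD followed by a digit and which had a probe set assigned to that symbol alone. The rule uses names only, and it found 115 genes of the 18417 measured. These were described in 2 classes, 46 copies of SNORD113, SNORD114, SNORD115 and SNORD116 from imprinted clusters, and 69 others. Total RNA was hybridised to 6 Affymetrix Human Gene arrays: P68 Knockdown is the label of 3 of them, and P68 Wild Type of the other 3. All cultures were U-87 cells in serum-containing medium and were transfected with siP68 or with NC, a reagent the labels do not spell out or tie to the wild-type arrays by name. U-87 is 1 cell line, so the arrays do not sample different tumours. Whether replicate arrays stem from independent cultures is not labelled, and the p-values therefore reflect only array-to-array spread, which may be technical.

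Box C/D snoRNAs are short nucleolar RNAs named for 2 conserved sequence boxes. Each binds the proteins fibrillarin, NOP56, NOP58 and SNU13, and most guide ribose methylation of ribosomal RNA by base pairing with it. A few, among them U3, U8, U13 and U14, act in the cleavage or maturation of the ribosomal RNA precursor, and others guide the modification of the spliceosomal RNA U6. In human cells nearly all are cut from the introns of host genes, many of which encode ribosomal proteins or are non-coding RNAs such as GAS5. The SNORD115 and SNORD116 clusters lie in the imprinted Prader-Willi region inside the non-coding gene SNHG14 and are known mainly from neurons, and the SNORD113 and SNORD114 clusters lie in the imprinted DLK1-DIO3 region inside MEG8.

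Because one host transcript can yield several snoRNAs, the upstream sequences of hosts with several members are shown first. Of the 41 genes that span 67 of the 69 other members, 34 had a promoter sequence in RefSeq (GRCh38.p14). GAS5 spans 7 members, RPL13A 4 and RPL3 3, while SNHG14 spans 39 of the imprinted copies. The 100 bases before each gene's start are given 5′ to 3′. Capitals mark matches on either strand to CCGGAAG, the core bound by ETS factors, to TATAAA, the TATA box, and to GGGCGG, the GC box bound by Sp1.
GAS5 (GRCh38.p14 chr1:173869046-173869145, minus strand): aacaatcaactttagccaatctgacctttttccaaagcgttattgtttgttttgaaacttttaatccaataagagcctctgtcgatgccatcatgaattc
RPL13A (GRCh38.p14 chr19:49487508-49487607, plus strand): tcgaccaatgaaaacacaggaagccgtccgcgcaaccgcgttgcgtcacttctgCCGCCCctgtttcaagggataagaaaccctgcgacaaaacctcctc
RPL3 (GRCh38.p14 chr22:39319624-39319723, minus strand): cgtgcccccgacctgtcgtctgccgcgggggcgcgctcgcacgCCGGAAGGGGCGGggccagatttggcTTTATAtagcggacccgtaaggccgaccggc
SNHG14 (GRCh38.p14 chr15:24823508-24823607, plus strand): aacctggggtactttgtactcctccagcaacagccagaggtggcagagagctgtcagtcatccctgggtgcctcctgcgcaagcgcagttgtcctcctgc
The stretch of RPL3 held all 3 motifs, with the ETS core and the GC box side by side, that of RPL13A held 1 GC box, and those of GAS5 and SNHG14 held none of these letters. GC content was 35% for GAS5, 56% for RPL13A, 72% for RPL3 and 60% for SNHG14. Over the 250 bases before the start, the GC box was found in 23 of the 34 hosts (67.6%) and in 42.3% of 27305 RefSeq promoters. The ETS core was found in 14.7% of hosts and 8.8% of all promoters, and TATAAA in 20.6% and 11.1%. A match describes letters and does not show binding.

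DDX5 itself gave log2 signals of 9.47, 9.79 and 9.91 in knockdown replicates 1, 2 and 3, all below the wild-type values of 10.09, 10.25 and 10.30. Its knockdown signal was thus 71.2% of the wild type (log2 difference -0.49 ± 0.13, SE), and its adjusted p in limma was 0.902. The difference of DDX5 was -0.36 without knockdown replicate 1, -0.39 after cyclic loess and -0.40 after repeated quantile normalisation. Array medians over all probe sets lay between 4.32 and 4.37. Knockdown replicate 2 stood apart for the C/D snoRNAs: 39 of the 69 other members (56.5%) had their lowest value there, against 19.7% of all genes. DDX5 was lowest on knockdown replicate 1, not on that array. Of the glial and mesenchymal markers, VIM, NES and GFAP were not among the dimmest 40% of genes, and 5 of 11 were (CD44, S100B, SLC1A3, AQP4 and TNC). None of these markers passed the threshold, and 5 lay above 0 and 6 below, with a median of -0.09. The groups did not overlap for 3 of the 11 (27.3%), where 10.1% of all genes did not overlap. AQP4 was higher in the knockdown (0.37), and FN1 (-0.21) and SLC1A3 (-0.17) were lower. Markers of other cell types differed between the groups in part, none past the threshold. The groups did not overlap for 28.6% of oligodendrocyte, 42.9% of microglial and leukocyte and 15.4% of neuronal markers, against 10.1% of all genes. All 7 measured oligodendrocyte markers had differences above 0, led by CNP at 0.38 ± 0.11 (SE). Their mean log2 signal ran from 5.06 to 5.11 over the knockdown arrays and from 4.94 to 5.003 over the wild-type arrays. Of 7 microglial and leukocyte markers 4 lay above 0, led by CD68 (0.50) and CD14 (0.42). The 3 below 0 were PTPRC (-0.16), ITGAM (-0.14) and AIF1 (-0.01). Mean signals of this list were 3.684 to 3.767 in the knockdown and 3.527 to 3.679 in wild type. Of 13 neuronal markers 8 lay above 0, with overlapping mean signals of 4.37 to 4.53 and 4.37 to 4.51. STMN2 differed most of them, at 0.32 ± 0.11 (SE), and NEFL and NEFM were lowest of the 5 below 0, at -0.23 each. The part of all these markers in the snoRNA values was not tested.

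Most C/D snoRNAs outside the imprinted clusters had lower signal on the knockdown arrays, by small amounts, and no member passed the test. Of these 69, 56 had a log2 difference (knockdown minus wild type) below 0 and 13 above, with a median of -0.10. Over all 18417 genes, 46.5% lay below 0 and 52.5% above, and the median was 0.01. The imprinted copies were spread around 0, with 25 below, 20 above and 1 at 0, and a median of -0.02. SNORD44, which guides methylation of small-subunit ribosomal RNA, and SNORD116-15 of the Prader-Willi cluster had the largest differences, -0.83 and -0.90. The other members' median was -0.05 without knockdown replicate 2, with 46 of 69 below 0, and -0.16 without knockdown replicate 1 or without wild-type replicate 3. In cultures measured in bulk, fewer cells that make an RNA and less RNA per cell cannot be told apart. A probe set inside an intron can also detect the unspliced host, and mature snoRNA and host precursor cannot be told apart here.

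**Figure D1:**
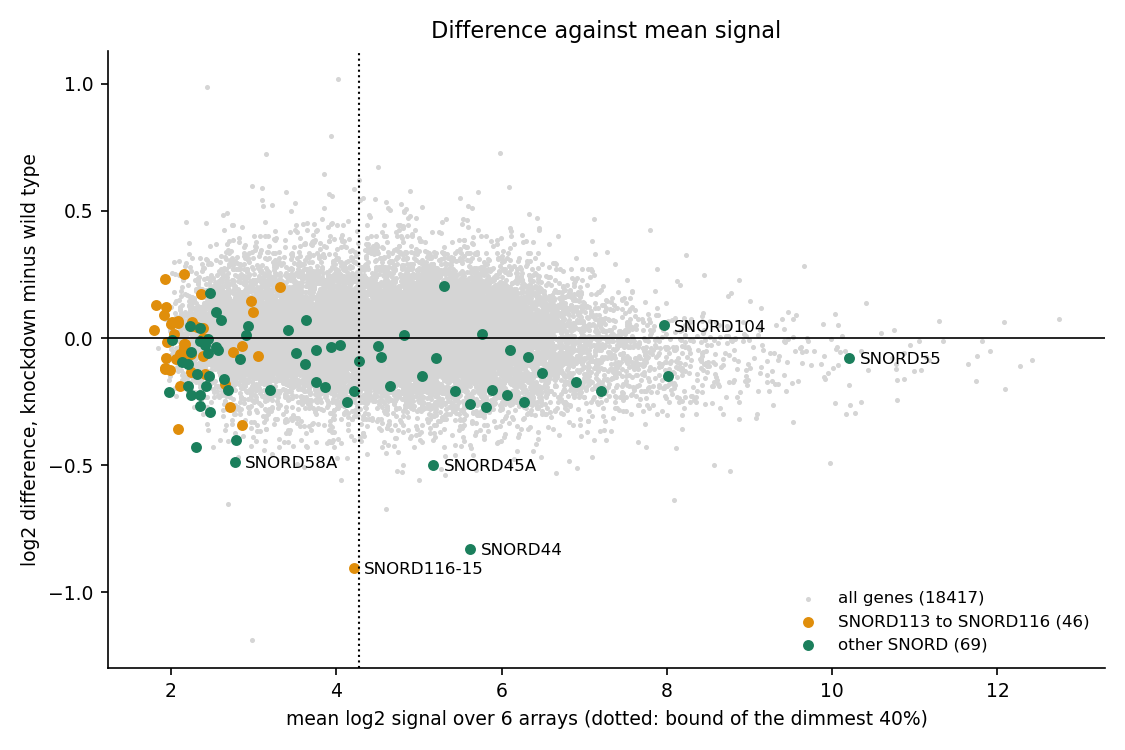
Log2 difference (knockdown minus wild type, vertical axis) against mean log2 signal over the 6 arrays (horizontal axis), with 1 point per gene. The 69 other SNORD genes (green) lie mostly below 0, the 46 copies of SNORD113 to SNORD116 (orange) lie to the left of the dotted bound of the dimmest 40% of genes, and SNORD44 and SNORD116-15 lie lowest among the members.

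None of the 115 members differed at an adjusted p under 0.05 in limma (Benjamini-Hochberg over all 18417 genes), where 0% of all genes did. The smallest adjusted p of a member was 0.902. Unadjusted p-values under 0.05 were found for 10 members lower in the knockdown (8.7%), against 2.06% of all genes, and for 1 member higher (0.9%), against 3.02%. In either direction the share of all genes was 5.09%. The groups did not overlap for 13 members lower in the knockdown and 1 higher, where 10.1% of all genes did not overlap in either direction. For the other class this was 10 of 69 lower (14.5%) and 0 higher, where 4.15% of all genes were lower and 5.98% higher. For the imprinted copies it was 3 of 46 lower (6.5%) and 1 higher (2.2%), which is near those background shares. The members share hosts, near-identical sequence and arrays, so they are not independent, and no test was made of these shares. With 3 arrays against 3, an exact permutation test of a single gene cannot go below p = 0.1.

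**Figure D2:**
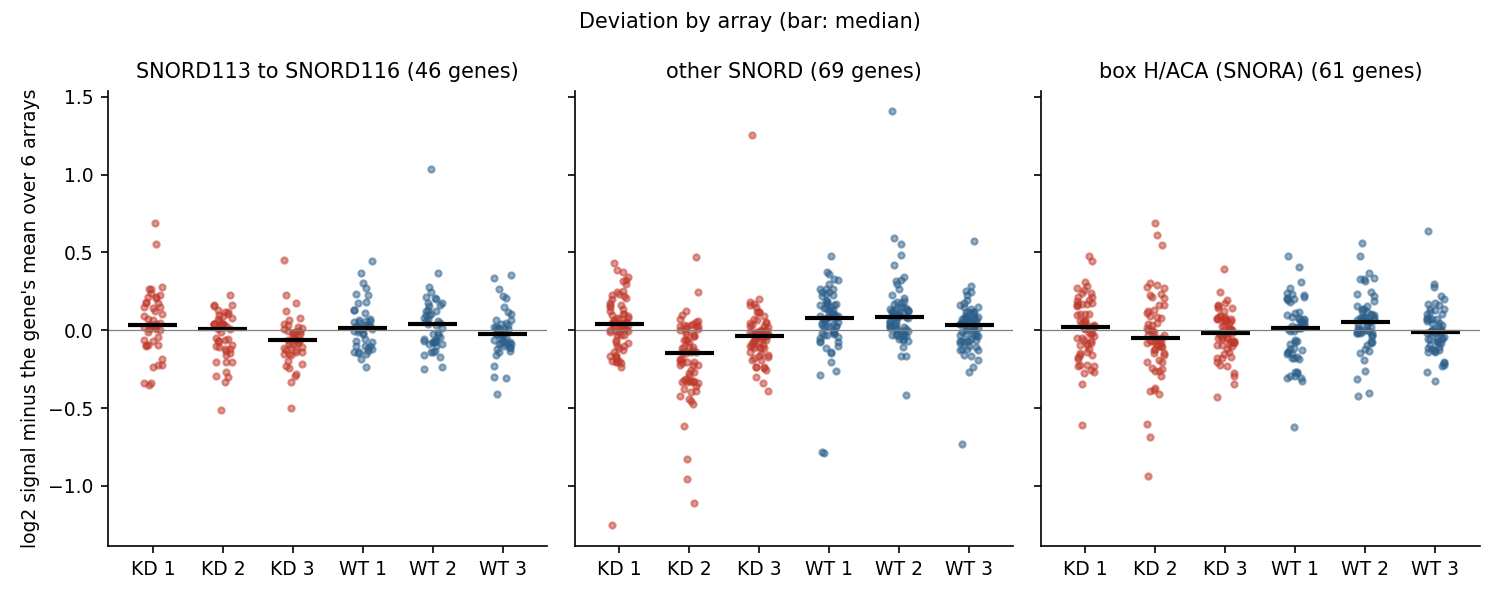
Each gene's log2 signal minus its mean over the 6 arrays (vertical axis), by array (KD, knockdown; WT, wild type; numbers are replicates), for the 46 imprinted copies, the 69 other SNORD genes and 61 box H/ACA snoRNA genes; black bars are medians. The median of the other SNORD genes is lowest on knockdown replicate 2, at -0.14, and lies between 0.03 and 0.09 on the wild-type arrays.

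The arrays differed within the knockdown group as well. The median deviation of the 69 other members from their 6-array means was 0.04 on knockdown replicate 1, -0.14 on replicate 2 and -0.04 on replicate 3. On the wild-type arrays it was 0.08, 0.09 and 0.03. Knockdown replicate 1 thus lay within the wild-type range, replicate 3 just below it and replicate 2 furthest below. The imprinted copies did not share this order: their medians were 0.04, 0.007 and -0.06 on the knockdown arrays and 0.01, 0.04 and -0.03 on the wild-type arrays. The spread between replicates was wider for the other members in the knockdown, with a median SD of 0.18 against 0.12 in the wild type (n = 3 each). Over all genes these were 0.14 and 0.12.

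The classes overlapped in signal range. All 46 imprinted copies belonged to the 40% of genes with the dimmest mean signal. No detection calls were used, so expression and background cannot be told apart in that range. Of the 69 others, 44 were also in that range and 25 were above it. Among those 25, 21 lay below 0 and 4 above, with a median of -0.15 (-0.06 without knockdown replicate 2 and -0.20 without knockdown replicate 1). Among the 44 dim ones, 35 lay below 0, with a median of -0.09 (-0.03 without knockdown replicate 2 and -0.15 without knockdown replicate 1). The bound falls at a log2 signal of 4.28. SNORD38A, at 4.28, was the dimmest member outside the range, and SNORD21 and SNORD116-15, both at 4.21, were the brightest inside it.

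Of the guides of ribosomal RNA methylation, SNORD44 differed most. Its log2 signals were 5.72, 4.51 and 5.38 on knockdown replicates 1, 2 and 3 and 5.95, 5.96 and 6.19 on the wild-type arrays. All 3 knockdown values lay below all 3 wild-type values, with replicate 2 far below the others. Knockdown averaged 5.20 ± 0.62 and wild type 6.03 ± 0.14 (SD, n = 3 each), so that the knockdown signal was 56.3% of the wild type. At -0.83 ± 0.25 (SE) this was the largest log2 difference in size among the 11045 genes outside the dimmest 40%, and limma gave an adjusted p of 0.902. Without knockdown replicate 2 the difference was -0.48.

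SNORD32B, a copy of SNORD32A, gave 5.66, 5.29 and 5.50 in the knockdown against 5.71, 5.82 and 5.70 in the wild type. The groups did not overlap, by a margin of a few hundredths, and the difference of -0.26 ± 0.12 (SE) was -0.16 without knockdown replicate 2. SNORD32A, which guides methylation of ribosomal RNA of both subunits, gave 7.25, 6.87 and 7.18 against 7.24, 7.43 and 7.26. Its groups overlapped, and its difference of -0.21 ± 0.12 (SE) was -0.095 without knockdown replicate 2. The copies are near identical in sequence, so their signals may not be separate.

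SNORD58A, a guide of large-subunit ribosomal RNA hosted by RPL17, gave 2.56, 2.45 and 2.58 in the knockdown against 2.88, 3.26 and 2.91 in the wild type. The knockdown arrays were close together and all below the wild type, at a log2 difference of -0.49 ± 0.12 (SE), and the difference was -0.45 without knockdown replicate 2. SNORD1A, a guide of large-subunit ribosomal RNA hosted by SNHG16, gave 2.30, 2.45 and 2.24 against 2.66, 2.61 and 2.59. Here replicate 2 was the highest knockdown array. The difference of -0.29 ± 0.10 (SE) was -0.35 without it and -0.245 without knockdown replicate 3. SNORD56B, a relative of SNORD56, gave 2.17, 2.36 and 2.11 against 2.61, 2.40 and 2.43. Its difference was -0.27 ± 0.11 (SE), again with replicate 2 the highest of the knockdown. Without wild-type replicate 1 that difference was -0.20. SNORD36B, hosted by RPL7A, gave 2.24, 1.93 and 2.23 against 2.32, 2.25 and 2.50. The upper knockdown values came within 0.01 to 0.02 of the lowest wild-type value, and its difference of -0.22 ± 0.12 (SE) was -0.12 without replicate 2. These 4 genes were all among the dimmest 40%, and each had an adjusted p of 0.902 in limma.

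**Figure D3:**
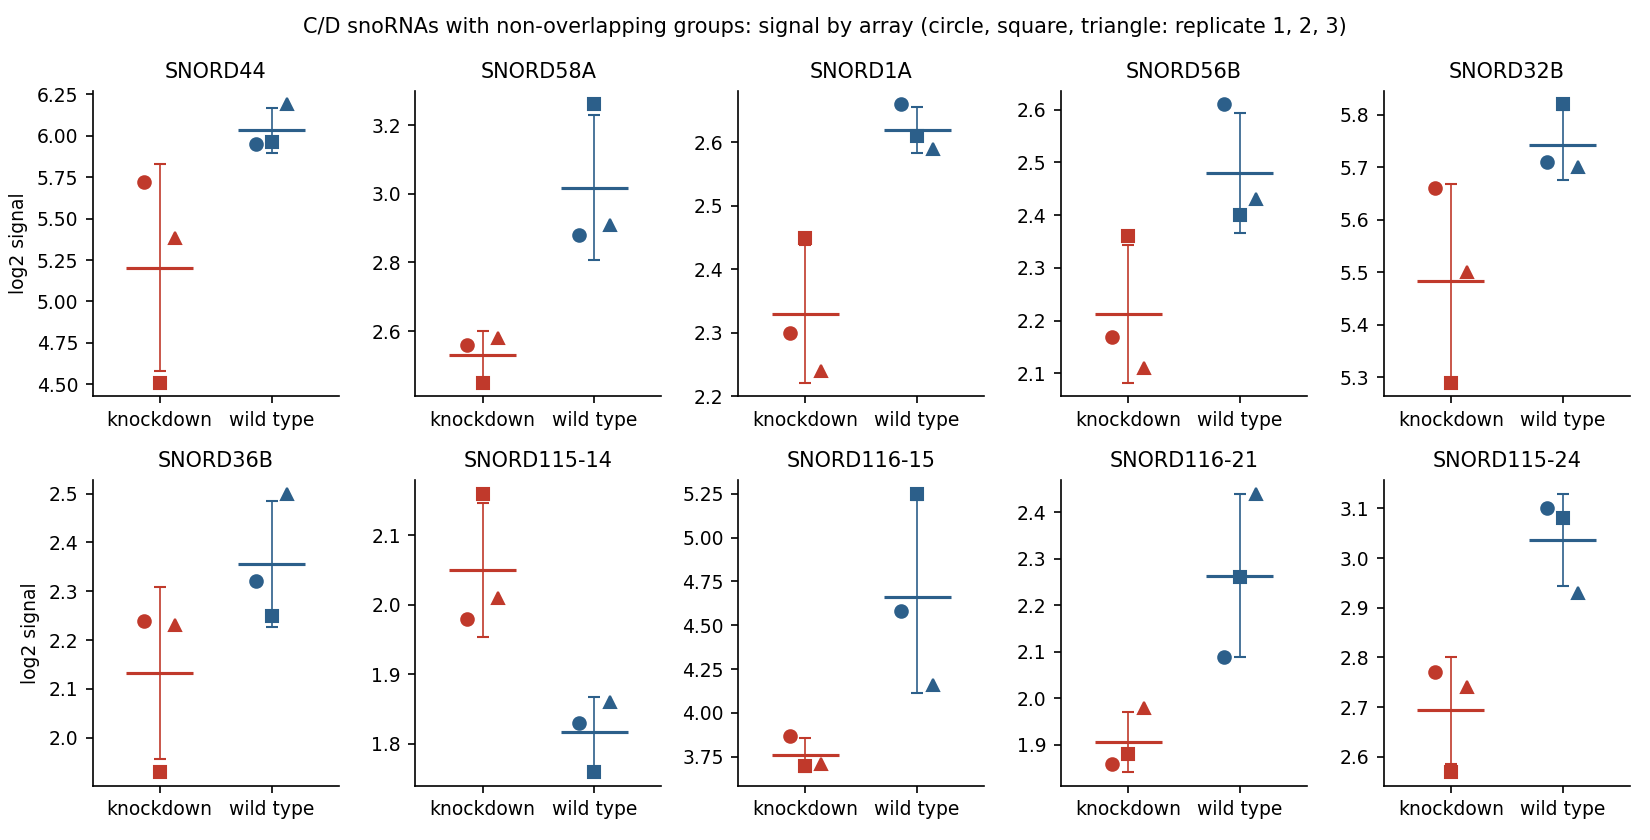
Log2 signal (vertical axes, each with its own range that does not start at 0) of the 10 members named for the largest differences among those whose groups did not overlap, in knockdown (red) and wild type (blue). Points are arrays, horizontal bars are means and error bars are SD (n = 3). SNORD115-14 is the one member higher in the knockdown, and the SNORD44 mean is pulled down by replicate 2.

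The other 4 members with groups that did not overlap were SNORD15B, SNORD21 and SNORD30, all guides of large-subunit ribosomal RNA, and SNORD77. Their log2 differences lay between -0.20 and -0.21, and without knockdown replicate 2 they lay between -0.20 and -0.24. SNORD15A, from the same host RPS3 as SNORD15B, had a difference on the other side of 0, at 0.20 ± 0.11 (SE), with overlapping groups. SNORD15B gave -0.21 ± 0.10 (SE). A log2 difference of 0.5 or more in size was reached by 3 members, where 0.304% of all genes reached it: SNORD116-15, SNORD44 and SNORD45A. SNORD45A, a guide of small-subunit ribosomal RNA, gave 5.42, 4.22 and 5.14 in the knockdown against 5.55, 5.36 and 5.37 in the wild type. Its groups overlapped, and its difference of -0.50 ± 0.25 (SE) was -0.15 without replicate 2.

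Mean signal depends on the probes as well as the RNA. Of the 4 other members with the highest mean signal, SNORD32A, given above, had the largest difference in size (-0.21), and the groups overlapped for all 4. SNORD55, a guide of large-subunit ribosomal RNA, gave 10.22, 10.10 and 10.18 in the knockdown against 10.24, 10.18 and 10.31 in the wild type. Its difference of -0.08 ± 0.10 (SE) was smaller than its error and turned to 0.02 after repeated quantile normalisation and 0.03 after cyclic loess, and it was -0.04 without knockdown replicate 2. SNORD78, another such guide within GAS5, gave 8.10, 7.67 and 8.03 against 8.10, 8.13 and 8.02. Only replicate 2 was clearly low, and the difference of -0.15 ± 0.13 (SE) was -0.02 without it and -0.23 without knockdown replicate 1. SNORD104, also a guide of large-subunit ribosomal RNA, gave 8.10, 7.94 and 7.93 against 7.96, 7.90 and 7.96. Its difference of 0.05 ± 0.10 (SE) was -0.005 without knockdown replicate 1.

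Of the families that act in cleavage or maturation of the ribosomal RNA precursor, U13 and U14 were represented. Of U3 and U8, no probe set carried a single SNORD symbol. SNORD13 (U13) gave 3.85, 3.10 and 3.35 in the knockdown against 2.63, 4.01 and 3.57 in the wild type, so the wild-type arrays spanned more than the knockdown arrays. Its difference was 0.03 ± 0.30 (SE), and it became -0.36 when wild-type replicate 1 was left out, 0.33 when replicate 2 was, and -0.10 with array weights. SNORD14C and SNORD14E (U14), both within HSPA8, gave differences of -0.19 ± 0.14 and -0.25 ± 0.25 (SE). SNORD14E was at 4.52, 3.31 and 4.20 in the knockdown against 4.31, 4.11 and 4.36 in the wild type, with 1 low array, and its difference became 0.10 with knockdown replicate 2 left out and -0.505 with replicate 1 left out. SNORD14C, at 4.08, 3.59 and 3.62 against 4.02, 3.97 and 3.88, gave -0.11 and -0.35 under the same omissions.

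The guides of the spliceosomal RNA U6 were 3 of the members, and this grouping was made after their values were seen. SNORD7 was 3.10 ± 0.09 in the knockdown against 3.30 ± 0.19 in the wild type, SNORD8 was 6.28 ± 0.09 and 6.35 ± 0.01, and SNORD94 was 5.16 ± 0.16 and 5.24 ± 0.15 (SD, n = 3 each). All 3 differences lay below 0, at -0.20, -0.07 and -0.08, and in each the groups overlapped. Without knockdown replicate 2 they were -0.22, -0.04 and 0.002, so that SNORD94 no longer lay below 0.

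Members were then compared within their hosts. Each host is the shortest RefSeq gene that spans the member, without regard to strand, which the table does not give. All 7 members within GAS5, a non-coding RNA gene whose spliced transcript has no long open reading frame, lay below 0 (median -0.16). Of these 7, 6 had their lowest value on knockdown replicate 2, and without it 5 lay below 0 with a median of -0.02. All 4 members within RPL13A lay below 0, with a median of -0.11. Without knockdown replicate 2 their median was -0.07, with 3 of 4 below 0. Hosts with members on both sides of 0 were RABGGTB, RPL23A, RPL3, RPS3, SNHG1, SNHG16 and SNHG5. Of the hosts that span more than 1 member, 13 are reported here, with 36 members in all.

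**Figure D4:**
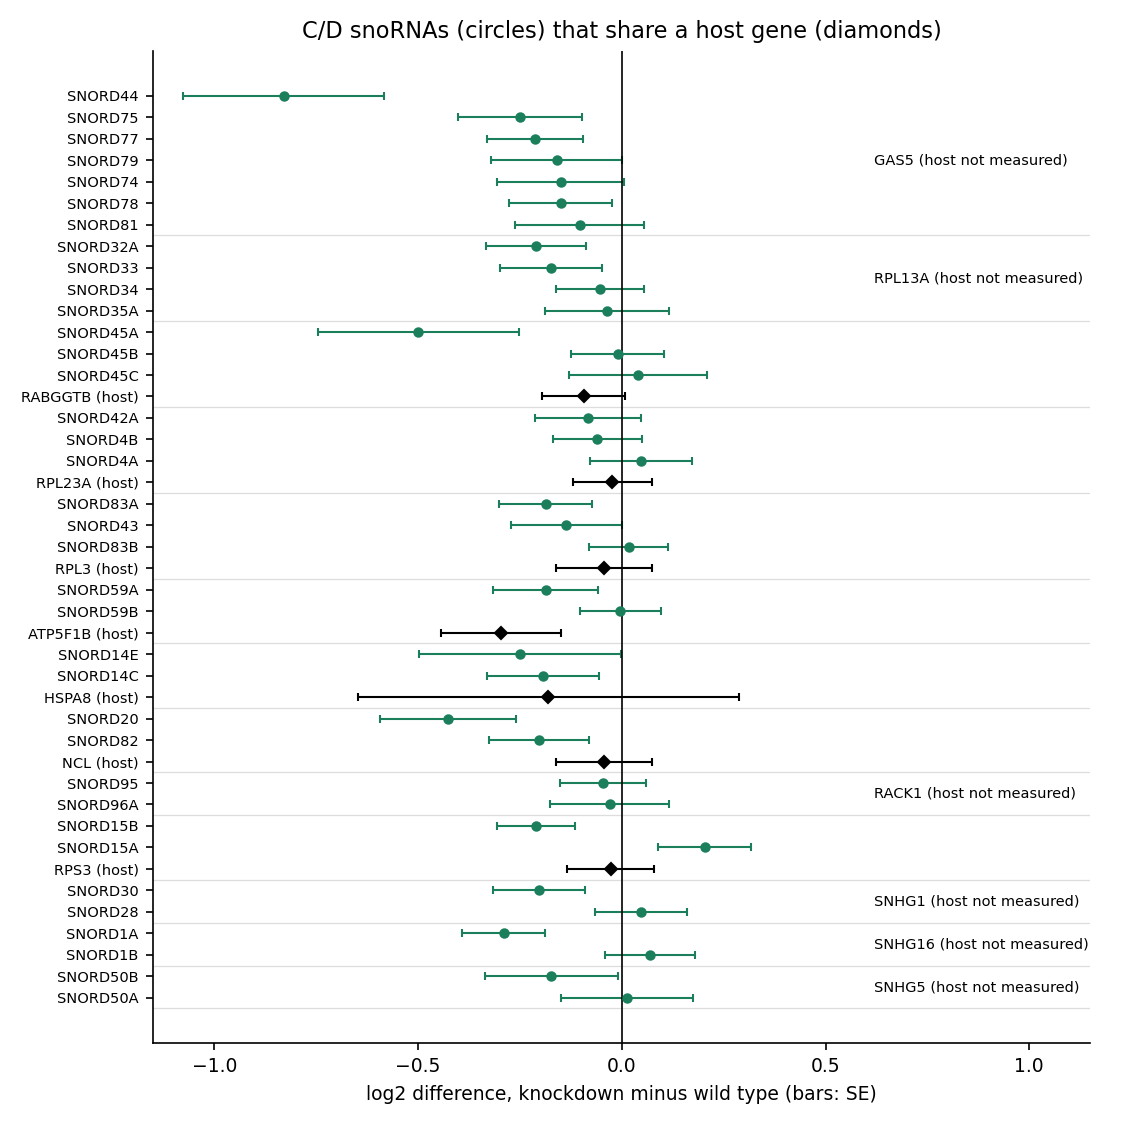
Log2 difference (knockdown minus wild type, horizontal axis) with its SE for 36 members that share 13 host genes (green circles), grouped by host, and for the host itself where it had a probe set of its own (black diamonds). All 7 GAS5 members and all 4 members within RPL13A lie to the left of 0, with SNORD44 furthest.

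The host genes themselves lay lower in the knockdown by smaller amounts. Of the 41 hosts, 25 had a probe set assigned to them alone. Of these, 20 lay below 0 and 5 above, with a median of -0.06 (-0.025 without knockdown replicate 2), and none passed the threshold. FOXK1, KIF9 and PHETA2, all above 0, span the 3 members that RefSeq lists as pseudogenes. All 7 ribosomal protein hosts lay below 0, from -0.01 for RPL17 to -0.38 for RPS20, with a median of -0.04 (-0.08 without wild-type replicate 3). RPS20, a protein of the small subunit, gave -0.38 ± 0.13 (SE), while its member SNORD54 gave -0.007, or 0.09 without knockdown replicate 2. RPL17 gave -0.01 ± 0.10 (SE), while SNORD58A within it gave -0.49. ZFAS1, a non-coding RNA gene, gave 0.16 ± 0.10 (SE), while SNORD12C within it gave -0.40 ± 0.16 (SE). These pairs were chosen after their values were seen. Over the 35 members with a measured host, the member's and the host's differences had a Pearson r of 0.009. Member and host both lay below 0 for 25 of the 35 and both above for 2. Only the host lay below 0 for 5, and only the member for 3. The points share arrays and in part hosts, and genes are not independent replicates.

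The imprinted copies gave 3 genes lower and 1 higher in the knockdown with groups that did not overlap. SNORD116-15 gave 3.87, 3.70 and 3.71 in the knockdown against 4.58, 5.25 and 4.16 in the wild type. The knockdown arrays were close together, whereas the wild-type arrays spread over more than 1 log2 unit. Knockdown averaged 3.76 ± 0.10 and wild type 4.66 ± 0.55 (SD, n = 3 each). The difference between them was -0.90 ± 0.22 (SE), and limma gave an adjusted p of 0.902. The difference was -0.61 without wild-type replicate 2.

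SNORD116-21 gave 1.86, 1.88 and 1.98 against 2.09, 2.26 and 2.44. Its difference of -0.36 ± 0.11 (SE) was -0.27 without wild-type replicate 3. SNORD115-24 gave 2.77, 2.57 and 2.74 against 3.10, 3.08 and 2.93. Its difference of -0.34 ± 0.11 (SE) was -0.28 without knockdown replicate 2. SNORD115-14, the only member of all 115 with every knockdown array above every wild-type array, gave 1.98, 2.16 and 2.01 against 1.83, 1.76 and 1.86, a difference of 0.23 ± 0.10 (SE). SNORD115 is known for base pairing with the serotonin receptor 2C transcript. All 3 probe sets were among the dimmest 40%.

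The clusters did not move as units. Of 20 SNORD116 copies, 11 lay below 0 and 8 above (median -0.045, or 0.02 without wild-type replicate 2). Of 20 SNORD115 copies, 12 lay below 0 and 8 above (median -0.02, or 0.03 without knockdown replicate 3 and -0.07 without knockdown replicate 1). Of 4 SNORD114 copies, 3 lay above 0 (median 0.17, or 0.08 without knockdown replicate 1), and SNORD113 had 1 of 2 copies on each side. SNORD114-26, among the copies of highest mean signal, gave 3.60, 3.48 and 3.18 against 3.20, 3.23 and 3.23. Its difference of 0.20 ± 0.12 (SE) was 0.11 with knockdown replicate 1 left out and 0.32 with replicate 3 left out. SNORD114-3 gave -0.07 ± 0.10 (SE), or -0.01 without wild-type replicate 3 and -0.13 without wild-type replicate 2. SNORD116-29 gave 0.10 ± 0.18 (SE), or -0.10 without knockdown replicate 3 and 0.30 without knockdown replicate 1. Copies of a cluster share most of their sequence, so the values of single copies are uncertain. The 49 probe sets that named a SNORD gene together with further symbols were left out. How many of those cover copies of these clusters was not counted. The whole class median was 0.02 without wild-type replicate 2, 0.01 without knockdown replicate 3 and -0.06 without knockdown replicate 1.

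Other genes of the imprinted domains that hold these clusters lay on both sides of 0. Of 11 measured over both domains, 8 lay above 0 and 3 below (UBE3A, NDN and DIO3), with a median of 0.10 (-0.003 without knockdown replicate 1, 0.20 without knockdown replicate 3), and none passed the threshold. DLK1 of the domain that holds SNORD113 and SNORD114, a membrane protein of the Notch ligand family, differed most of these, at 5.26, 5.63 and 5.18 in the knockdown against 5.15, 5.04 and 5.05 in the wild type. Its difference of 0.28 ± 0.13 (SE) was 0.14 without knockdown replicate 2.

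Of the 4 core proteins of the C/D particle, fibrillarin and NOP58 had a probe set of their own. Fibrillarin (FBL), the methyltransferase, gave 5.94, 6.04 and 6.03 in the knockdown against 6.00, 6.25 and 5.92 in the wild type. Its difference of -0.05 ± 0.11 (SE) was 0.04 without wild-type replicate 2 and -0.12 without wild-type replicate 3. NOP58, a scaffold of the particle, gave 5.61, 5.53 and 5.84 against 5.59, 5.91 and 6.21, a difference of -0.24 ± 0.16 (SE) that was -0.09 without wild-type replicate 3 and -0.40 without wild-type replicate 1. The groups overlapped for both.

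None of the genes that assemble, process or work with C/D particles passed the threshold. Of 17 assembly, trafficking and cap factors, 13 lay below 0 (median -0.08, or -0.14 without wild-type replicate 1), led by NOLC1, a nucleolar and Cajal body chaperone, at -0.32 ± 0.21 (SE), or -0.10 without wild-type replicate 2. Of 24 factors of snoRNA release, trimming and decay, 18 lay below 0 (median -0.08, or -0.17 without wild-type replicate 1 and -0.02 without wild-type replicate 2). SSB of this list, the La protein that binds the ends of new small RNAs, gave 6.17, 5.92 and 6.21 against 6.29, 6.44 and 6.53. Its difference of -0.32 ± 0.12 (SE) was -0.23 without knockdown replicate 2. The groups did not overlap for 1 gene of the list lower, SSB, and 1 higher, EXOSC4 at 0.28 ± 0.12 (SE). Each is 4.2% of the list, against 4.15% of all genes lower and 5.98% higher. Of 35 proteins of the small-subunit processome, 24 lay below 0 (median -0.06, or -0.13 without wild-type replicate 1 and -0.03 without wild-type replicate 2). WDR43, which also spans SNORD53, led it at -0.27 ± 0.14 (SE), or -0.14 without knockdown replicate 1. In all 3 lists the share below 0 exceeded the 46.5% of all genes, and no test of that was made.

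The box H/ACA snoRNAs, which guide pseudouridylation, gave a median closer to 0 than the C/D genes outside the imprinted clusters. Of 61 H/ACA genes, 33 lay below 0 and 28 above (median -0.03), with a median of -0.003 without knockdown replicate 2. The groups did not overlap for 6 lower (9.8%) and 3 higher (4.9%), where 4.15% and 5.98% of all genes did so. On knockdown replicate 2, 31.1% of them had their lowest value, against 56.5% of the other C/D members and 19.7% of all genes. The Cajal body RNAs (SCARNA) were 8 below and 8 above 0. Of the 6 core and assembly proteins of the H/ACA particle, 3 lay on each side (median -0.02, or -0.15 without knockdown replicate 1), led by the assembly factor NAF1 at -0.31 ± 0.18 (SE), or -0.51 without wild-type replicate 1 and -0.18 without wild-type replicate 3. The difference between the classes was not tested.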

How the data were processed

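Values were the deposited log2 signals of 29096 probe sets on 6 arrays, rounded to 2 decimals, which the authors made with RMA, per the submitters' processing notes. RMA equalises the signal distributions of the arrays, which hides any shift common to most genes. For software, version and filters, the sources used here give nothing. The platform annotation gave 19460 probe sets 1 gene symbol, 1754 several and 7882 none. Of those with several, 49 named a SNORD gene and were left out. Each of 18417 genes was represented by its brightest probe set, and each of the 115 members had only 1. All members matched RefSeq (GRCh38.p14) by gene identifier. All genes entered 1 fit in limma 3.58.1, R 4.3.3 (lmFit, eBayes, two-sided, group as the only term, no filter on dim probe sets), with Benjamini-Hochberg adjustment and a threshold of 0.05. The median SE was 0.12, and the number of arrays limits the precision. Simulated data for these 18417 genes held 200 changed genes, with changes of up to 4-fold. Of those changed 1.41-fold 49% were recovered, and of those changed 2-fold 99.4%. Of the calls 6.6% were false, above the 5% that the threshold sets. The simulated noise was independent between genes and held no array effects, so these shares need not hold for the measured arrays. In the measured data SNORD116-15, at a log2 difference of -0.90, had an adjusted p of 0.902 in limma.

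The members and lists were chosen with earlier results of these data known, and no list was tested as a set. Members named are those past the threshold, up to 6 with the largest rise and 6 with the largest fall per class among those whose groups did not overlap, the 4 of highest mean per class, the U3, U8, U13 and U14 families, and the gene of largest difference in each list. Other names were chosen after their values were seen. Hosts were meant to be matched by strand; strand was not used here because the gene table gives none. Alternatives were leaving out the dimmest 40% of genes, centring, cyclic loess, repeated quantile normalisation, averaged probe sets, every probe set, an intensity trend, array weights, a replicate block, other thresholds and leaving out each array. 1 host gene is not reported here.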

Additional observations from a re-analysis of the deposited data

How the results depend on the processing

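No member and no gene passed the adjusted threshold under any alternative run, thresholds of 0.01 and 0.1 included. Unadjusted p-values under 0.05 were found for 0 members higher in the knockdown with a replicate block, without the dimmest 40% of genes, after cyclic loess or after repeated quantile normalisation, and for 0 to 1 with single arrays left out. Those lower in the knockdown numbered 2 without the dimmest 40% of genes, where only 25 members were tested, and 7 to 15 with single arrays left out. That filter left no imprinted copy. The median of the other members ran from -0.16 to -0.05 with single arrays left out, and from -0.15 to -0.09 under the other planned settings. It was -0.12 without the 3 pseudogene members and -0.09 with 1 value per host, both settings chosen after seeing the data. The imprinted median ran from -0.06 to 0.02. Signs turned for SNORD55 after quantile normalisation (0.022) and cyclic loess (0.029), and for SNORD13 with array weights (-0.10). With single arrays left out they turned for SNORD13 (-0.36 to 0.33), SNORD14E (-0.505 to 0.10), SNORD104 (-0.005 to 0.08), SNORD116-29 (-0.10 to 0.30) and FBL (-0.12 to 0.043). The cause was not tested. Arrays of the same number resembled each other only in part. Their deviations correlated with r = 0.27, -0.03 and 0.13 for replicates 1, 2 and 3. Replicate 1 gave the highest value of all pairs of a knockdown and a wild-type array. Over all probe sets, knockdown replicate 1 correlated more with wild-type replicate 1 (r = 0.988) than with knockdown replicates 2 (0.979) and 3 (0.985). With the replicate block 11 members were lower at an unadjusted p under 0.05, against 10 without it, and 0 passed the adjusted threshold. In their deviations, knockdown replicates 2 and 3 correlated best with a wild-type array of another number.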

Other observations

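The 49 probe sets assigned to a SNORD symbol together with further symbols belong in no comparison above. Of these, 27 lay below 0 and 22 above, with a median log2 difference of -0.02 (-0.01 without knockdown replicate 2) and a range from -0.63 to 0.23. Their groups did not overlap for 5 probe sets lower in the knockdown and for 0 higher, where 4.15% of all genes with a single symbol were lower and 5.98% higher without overlap. No gene is named from them.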
